A study of Mus musculus with 8 samples.

Results

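The genes described here encode β-catenin, the core of the complex that destroys it, and the nuclear factors it binds on DNA. They are 10 named genes, *Ctnnb1*, *Apc*, *Axin1*, *Gsk3b*, *Csnk1a1*, *Tcf7*, *Tcf7l1*, *Tcf7l2*, *Lef1* and *Bcl9*, found by symbol among 53801 genes of the count table. Their values did not enter this rule, but the genes were chosen with earlier results of these data known. All 10 passed the filter on low counts and stood among the 16445 genes tested. Messenger RNA was sequenced with Smart-seq2, a method that amplifies full-length cDNA from few cells, in stem cells sorted from the intestine of 8 mice. Cells were gated on EpCAM, an epithelial surface protein, on CD45, a leukocyte protein, and on the Lgr5-GFP reporter. They were also stained for the surface protein CD24 and with a dye for dead cells.

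Of the 8 mice, 4 carried β-catGOF; Mll1-/- (knockout) and 4 carried β-catGOF; Mll1+/- (control, with Mll1 lost on a single allele). β-catGOF is a β-catenin allele that loses exon 3 after recombination, and both genotypes carried it. Recombination was driven by a Cre recombinase fused to an estrogen receptor and expressed from the *Lgr5* locus, which is active in crypt stem cells. All mice were 4 to 6 weeks old at induction, received 50 mg/kg tamoxifen on 3 days, and were analysed 10 days after induction. Each library came from 1 mouse, and the mice are numbered here from 1 to 4 within a genotype in the order of their animal numbers. Animal numbers form a first run (mice 1 and 2 of each genotype) and a second run (mice 3 and 4). The library numbers given with the counts fall into the same separate blocks. No label says whether these runs differ in litter, sorting or library preparation.

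In the absence of a Wnt signal, *Axin1* and *Apc* products hold β-catenin together with the kinases made from *Csnk1a1* and *Gsk3b*, which phosphorylate its amino-terminal end and so mark it for degradation. When Wnt ligands block this complex, β-catenin enters the nucleus, binds TCF/LEF factors on DNA and recruits Bcl9 and other co-activators. In the intestinal crypt this pathway maintains stem cells, and *Tcf7l2* is the family member known to be needed there. The kinases act in order, the *Csnk1a1* product on serine 45 and the *Gsk3b* product then on threonine 41, serine 37 and serine 33.

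The exon lost from the β-catGOF allele is shown because it is the site at which these kinases meet their substrate. Exon 3 of the 15 exons of *Ctnnb1* (ENSMUSG00000006932) lies on the plus strand of GRCm38 at chr9:120950522-120950749 and holds 228 bases. Capitals mark, from left to right, the codons of serine 33 (TCT), serine 37 (TCT), threonine 41 (ACC) and serine 45 (TCC).
Ctnnb1 exon 3: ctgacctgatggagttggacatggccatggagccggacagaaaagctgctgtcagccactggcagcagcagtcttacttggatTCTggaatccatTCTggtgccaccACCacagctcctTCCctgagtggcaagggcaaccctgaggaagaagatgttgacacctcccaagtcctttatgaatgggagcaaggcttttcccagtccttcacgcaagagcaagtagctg
Its length is a whole number of codons (76), so the transcript without it stays in frame, and it touches codons 5 to 81. The exon makes up 4.39% of the 5192 exonic bases over which reads of *Ctnnb1* were counted. Counts were given per gene and not per exon, so the altered and the unaltered *Ctnnb1* transcript were counted together.

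Between 14468751 and 16847793 counts fell on genes per library. Knockout 3 stood apart from the others: its highest rank correlation with any other library was 0.837, against 0.854 to 0.870 for the remaining 7, and values without it are given where it matters. *Kmt2a*, which encodes the targeted Mll1, reached 63.5 ± 10.7 CPM (mean ± SD, n = 4; CPM are counts relative to the scaled total of the library) in the knockouts and 53.8 ± 7.45 CPM in the controls and was not lower in the knockouts (log2 fold change 0.24, SE 0.17, edgeR adjusted p = 0.710). A gene-level count does not show a deletion of some of its exons. *Lgr5* had 2678 to 5150 counts and *Epcam* 15650 to 29306 counts in the 8 libraries, while *Ptprc*, which encodes CD45, had 0 to 16. In such pooled cells, fewer cells of a type and less RNA per cell cannot be told apart.

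For none of the 10 genes was a difference between the genotypes detected. Expression was compared with edgeR's quasi-likelihood test on the counts, two-sided, with Benjamini-Hochberg adjustment over the 16445 genes, and an adjusted p under 0.1 was taken as a difference. By this rule 14 genes passed in all (0.0851%), 8 of them higher and 6 lower in the knockouts, and 0 of the 10 passed. At an unadjusted p under 0.05 the count was again 0 of the 10, against 1505 genes in all (9.15%), and DESeq2 (394 of 16406 genes, 2.4%) and limma-voom (103 of 16445, 0.626%) also called 0 of the 10. In 0 of the 10 did all 4 libraries of a genotype lie above all 4 of the other, which was the case for 6.28% of the genes tested. The fitted log2 fold change was above 0 for 8 of the 10 and below 0 for 2, beside 8350 above and 8095 below for all genes. Its median was 0.12 for the 10 and 0.01 for all genes.

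β-catenin transcripts were abundant, at a similar mean level in the genotypes. *Ctnnb1* stood at 187, 196, 179 and 154 CPM in knockouts 1 to 4 and at 188, 181, 147 and 153 CPM in controls 1 to 4. Its mean was 179 ± 18.0 CPM in the knockouts and 167 ± 20.5 CPM in the controls, and the libraries of the genotypes overlapped over most of their range. The log2 fold change was 0.10 (SE 0.13, edgeR adjusted p = 0.860), and the exact two-sided permutation test over the 70 ways to divide the libraries gave p = 0.371. The 95% interval of the fold change ran from 0.879 to 1.31, which was the second narrowest interval of the 10 genes after that of *Csnk1a1*.

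In CPM, *Ctnnb1* separated the runs, by a narrow margin, and not the genotypes. Its 4 libraries of the first run lay between 181 and 196 CPM and its 4 libraries of the second run between 147 and 179 CPM, without overlap. *Gsk3b* had the same division, with 80.3 to 89.2 CPM in the first run and 59.8 to 75.9 CPM in the second, and the other 8 genes overlapped between the runs. Among all genes tested, 5.84% did not overlap between the runs, and 2.92% did so with the first run higher. For *Ctnnb1* the gap was small, with 180.9 CPM in control 2 against 179.1 CPM in knockout 3, and it depended on the scaling. Divided by the authors' DESeq2 size factors (1.174 and 0.9223), the 3312 counts of knockout 3 exceeded the 2573 of control 2, so the runs overlapped. Within the runs *Ctnnb1* was higher in the knockouts by 0.05 (first run) and 0.15 (second run) on the log2 scale.

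**Figure D1:**
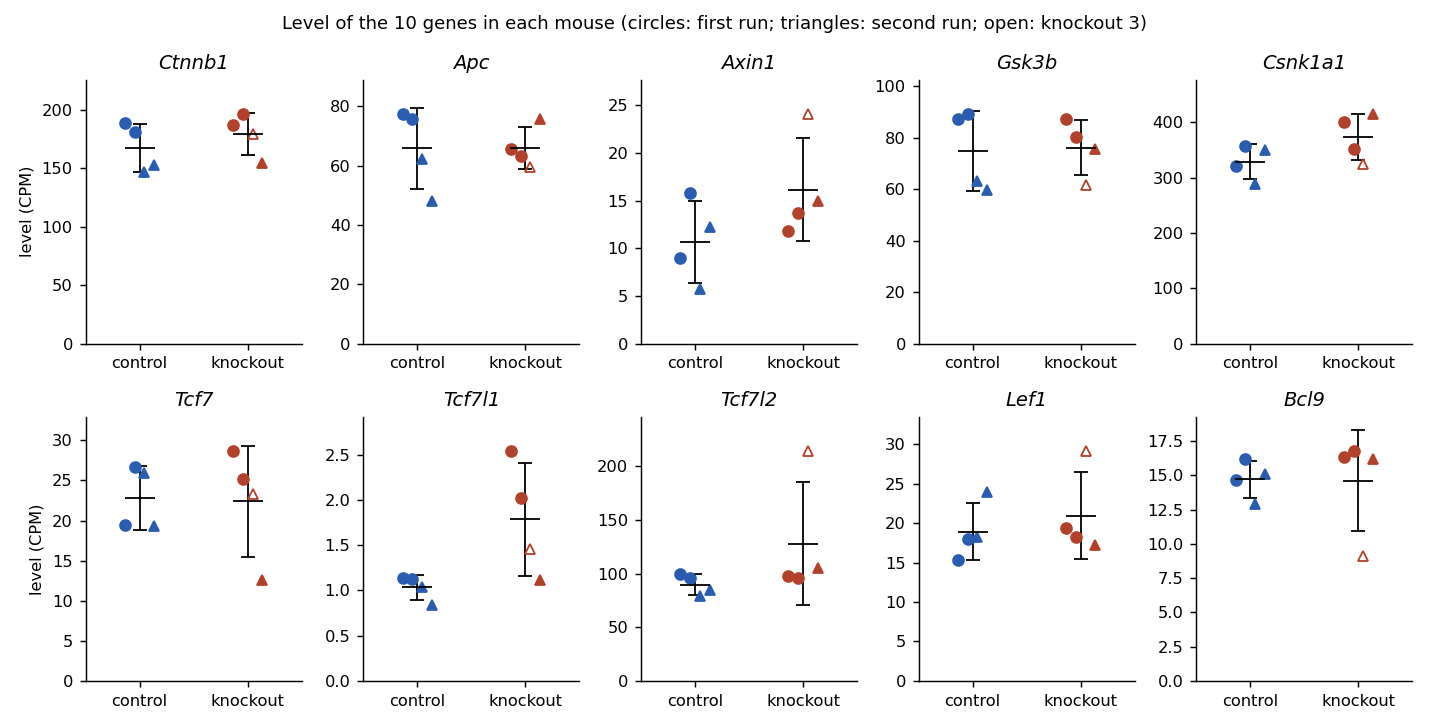
Each panel plots 1 of the 10 genes in CPM (vertical axis, from 0), with 4 control (blue) and 4 knockout (red) mice, the horizontal bar at the mean and the error bar at ± SD; circles are mice of the first run, triangles mice of the second run and the open triangle is knockout 3. The genotypes overlap in every panel, and knockout 3 is the highest point for *Axin1*, *Tcf7l2* and *Lef1* and the lowest for *Bcl9*.

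Among the scaffolds of the destruction complex, *Apc*, the tumour suppressor most often lost in colon cancer, had a fitted change near 0. *Apc* stood at 65.6, 63.3, 59.4 and 75.8 CPM in the knockouts and at 77.4, 75.9, 62.3 and 48.0 CPM in the controls. The control mice spanned the wider range and enclosed all 4 knockouts. The log2 fold change was 0.00 (SE 0.18, edgeR adjusted p = 0.998), and it was -0.25 within the first run and 0.30 within the second.

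*Axin1*, the scaffold whose amount is held to be limiting for the complex, varied most among the complex genes. It stood at 11.9, 13.7, 24.1 and 15.0 CPM in the knockouts and at 8.98, 15.7, 5.77 and 12.2 CPM in the controls. Knockout 3 was the highest library and control 3 the lowest, and the other 6 libraries were interleaved. The mean was 16.1 ± 5.44 CPM in the knockouts and 10.7 ± 4.28 CPM in the controls, a log2 fold change of 0.60 (SE 0.35, 95% interval -0.19 to 1.38, edgeR adjusted p = 0.654; exact permutation p = 0.200). The difference was 0.10 within the first run and 1.16 within the second, and the fitted log2 fold change was 0.34 without knockout 3, 0.39 without control 3, 0.84 without control 2 and 0.91 with the Xist covariate (edgeR adjusted p = 0.465). The level per kilobase of *Ctnnb1* relative to that of *Axin1* ranged from 5.49 in knockout 3 to 18.8 in control 3.

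Of the kinases, *Gsk3b* stood at 87.2, 80.3, 61.5 and 75.9 CPM in the knockouts and at 87.4, 89.2, 63.3 and 59.8 CPM in the controls. The genotypes covered nearly the same range, with a log2 fold change of 0.02 (SE 0.18, edgeR adjusted p = 0.981). *Csnk1a1*, which encodes casein kinase 1α, stood at 401, 352, 325 and 415 CPM in the knockouts and at 320, 358, 288 and 350 CPM in the controls. Knockouts 1 and 4 lay above all controls and knockouts 2 and 3 lay among them. The log2 fold change of *Csnk1a1* was 0.18 (SE 0.12, 95% interval -0.08 to 0.45, edgeR adjusted p = 0.685; exact permutation p = 0.171), and it was above 0 in both runs (0.15 and 0.21).

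The TCF/LEF genes encode the DNA-binding partners of β-catenin. *Tcf7l2* stood at 97.8, 95.5, 214 and 105 CPM in the knockouts and at 99.6, 96.0, 78.8 and 84.5 CPM in the controls. Knockout 3 stood alone, and the other 3 knockouts lay at or above the middle of the controls. The mean was 128 ± 57.3 CPM in the knockouts and 89.7 ± 9.74 CPM in the controls, and the log2 fold change was 0.51 (SE 0.26, 95% interval -0.08 to 1.10, edgeR adjusted p = 0.604; exact permutation p = 0.143). It was -0.02 within the first run and 0.87 within the second. The fitted value was 0.15 without knockout 3, 0.17 with limma-voom and its quality weights, and between 0.45 and 0.63 with any other library left out. The spread of *Tcf7l2* within the genotypes exceeded that of 88.6% of the genes of similar level, the highest such share among the 10 genes.

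*Tcf7*, which encodes TCF1 and is also known from T cells, stood at 28.6, 25.1, 23.4 and 12.5 CPM in the knockouts and at 19.4, 26.7, 25.9 and 19.4 CPM in the controls. The knockouts held both the highest and the lowest value. Its log2 fold change was -0.03 (SE 0.27, edgeR adjusted p = 0.985), with 0.23 within the first run and -0.38 within the second.

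*Lef1*, which is likewise known from lymphocytes, stood at 19.4, 18.2, 29.1 and 17.2 CPM in the knockouts and at 15.4, 18.0, 18.3 and 24.0 CPM in the controls. Apart from knockout 3 and control 4, the libraries lay close together. The log2 fold change was 0.15 (SE 0.24, edgeR adjusted p = 0.889), and -0.05 without knockout 3. Over 1208 bases, 13.75% of its exonic length, *Lef1* overlaps *Gm43352*, and reads there cannot be assigned to either gene without strand.

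*Tcf7l1*, which encodes TCF3, the family member known mainly as a repressor, was near the lower end of what was detected, with 13 to 43 counts per library. It stood at 2.54, 2.03, 1.46 and 1.12 CPM in the knockouts and at 1.14, 1.12, 1.04 and 0.84 CPM in the controls. Knockouts 1 to 3 lay above every control, and knockout 4 fell among the controls. The mean was 1.79 ± 0.63 CPM in the knockouts and 1.04 ± 0.14 CPM in the controls, a log2 fold change of 0.78 (SE 0.45, 95% interval -0.22 to 1.79, edgeR adjusted p = 0.647; exact permutation p = 0.0857). It was 0.93 within the first run and 0.40 within the second. This was the largest fitted change of the 10 genes, and its interval was also the widest.

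*Bcl9*, which encodes the co-activator that links β-catenin to Pygopus, stood at 16.3, 16.7, 9.09 and 16.2 CPM in the knockouts and at 14.7, 16.2, 12.9 and 15.1 CPM in the controls. Here knockout 3 was the lowest library, and the other 3 knockouts lay just above the highest control. The log2 fold change was -0.01 (SE 0.24, edgeR adjusted p = 0.993), and 0.16 without knockout 3.

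**Figure D2:**
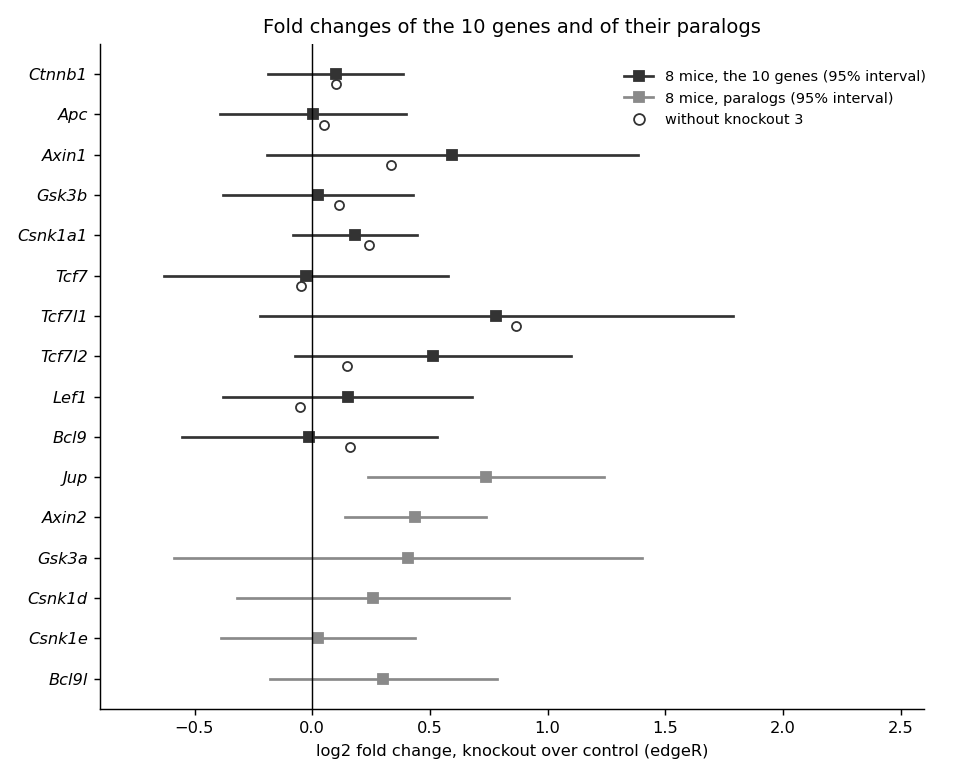
The log2 fold change of knockout over control (horizontal axis) is plotted for the 10 genes (black) and for 6 paralogs (grey), with squares for the edgeR estimate from 8 mice, lines for its 95% interval and open circles for the estimate of the 10 genes without knockout 3. All 10 intervals cross 0, the estimates of *Tcf7l2* and *Axin1* fall from 0.51 to 0.15 and from 0.60 to 0.34 without knockout 3, and the intervals of *Jup* and *Axin2* lie above 0.

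*Tcf7* and *Lef1* are also transcribed in lymphocytes, and lymphoid marker transcripts were therefore counted. Of 18 lymphoid marker genes, 1 (*Lck*) passed the filter on low counts, and their summed level ranged from 5.25 to 14.9 CPM in the knockouts and from 4.57 to 22.5 CPM in the controls. *Lck* had a log2 fold change of 0.96 (SE 0.42, edgeR adjusted p = 0.537). Control 1 had the highest sum, with 153 counts of *Gzma*, 37 of *Trbc2*, 33 of *Cd8a* and 29 of *Cd3g*. Among the other defining T cell genes, *Trac* reached 21 counts in knockout 3, *Cd3e* 11 in control 2, and *Cd3d* and *Cd4* at most 1 in any library. The part of lymphoid cells in the levels of *Tcf7* and *Lef1* was not tested.

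Other marker sums were compared by their ranges, without a test. The stem cell, epithelial, enterocyte and stromal sums did not overlap between the genotypes. The goblet, Paneth, enteroendocrine and tuft cell sums overlapped, the enteroendocrine sums by a narrow margin. The 4 stem cell markers summed to 8628 to 15293 CPM in the knockouts and 19960 to 23660 CPM in the controls, of which *Olfm4* made up most. Their log2 fold changes were -0.77 for *Olfm4*, -0.40 for *Ascl2*, -0.06 for *Lgr5* and 0.03 for *Smoc2*. The 6 epithelial markers summed to 3438 to 4139 CPM and 2730 to 2997 CPM, and the 8 enterocyte markers to 181 to 259 CPM and 304 to 396 CPM. All 6 epithelial markers had higher fitted values in the knockouts, and all 6 tested enterocyte markers lower ones. Of the 11 stromal and vessel markers, 3 passed the filter and the sum was 53.7 to 123 CPM against 8.85 to 12.3 CPM. *Vim* had 818 to 1958 counts in the knockouts and 3 to 68 in the controls, and *Col1a1* had at most 13 counts. The log2 fold changes of the 3 tested were 4.48 for *Vim*, 1.24 for *Pdgfrb* and -0.02 for *Pecam1*. The 9 goblet cell markers summed to 649 to 1193 CPM in the knockouts and 602 to 791 CPM in the controls, with 7 of 9 higher and a median log2 fold change of 1.09. The 9 Paneth cell markers summed to 1559 to 5055 CPM and 3107 to 4849 CPM, with 7 of 9 lower and a median of -1.005. Of these, *Pla2g2a* alone ranged from 113 to 2513 CPM in the knockouts and from 106 to 1181 CPM in the controls. The 7 enteroendocrine markers summed to 2.82 to 7.41 CPM and 7.30 to 70.4 CPM, and the 5 tuft cell markers to 0.974 to 6.603 CPM and 0.71 to 2.73 CPM. Of the enteroendocrine markers 5 were tested, all 5 were lower, and the median log2 fold change was -2.65. The part of these sums in the levels of the 10 genes, and of the pathway lists given later, was not tested.

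To compare the genes with each other, levels were divided by the exonic length in kilobases. *Csnk1a1* and *Ctnnb1* shared the top at 33.4 CPM per kb each, with ranges of 27.4 to 39.5 and 28.3 to 37.8 over the 8 libraries, and stood above 89.1% and 89.0% of the genes tested. *Tcf7l2* followed at 12.5 CPM per kb, *Tcf7* at 8.62 and *Gsk3b* at 7.69, and these 3 overlapped in range. Next came *Apc* at 4.19, *Axin1* at 3.50, *Lef1* at 2.27 and *Bcl9* at 1.74 CPM per kb, each overlapping its neighbour. *Tcf7l1* was last at 0.36 CPM per kb, above 6.22% of the genes tested, and *Ctnnb1* exceeded it 92.8-fold. Neighbours in this order were set apart by non-overlapping ranges at 3 places only, below *Ctnnb1*, below *Gsk3b* and below *Bcl9*. *Ctnnb1* thus stood above both scaffolds of its destruction complex, *Apc* and *Axin1*, in every library, and *Csnk1a1* above the other kinase gene, *Gsk3b*. The tie of *Csnk1a1* and *Ctnnb1* and the place of *Gsk3b* hold for the exonic length only. This length exceeds that of the longest coding transcript unevenly, with 10502 against 1860 bases for *Csnk1a1*, 9831 against 1750 for *Gsk3b* and 5192 against 3623 for *Ctnnb1*.

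**Figure D3:**
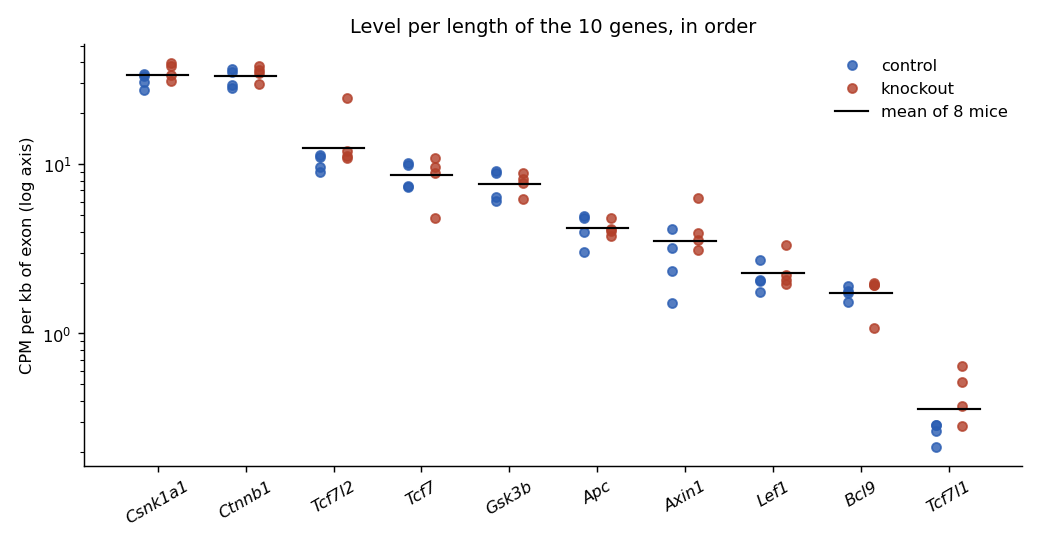
Levels in CPM per kilobase of exon (vertical log axis) are plotted for the 10 genes in order of their mean, with a point for each of 4 control (blue) and 4 knockout (red) mice and a bar at the mean of 8. *Csnk1a1* and *Ctnnb1* lie together at 33.4, and *Tcf7l1* lies alone at 0.36.

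Within the TCF/LEF family, *Tcf7l2* and *Tcf7* together made up most of the transcripts. Of the summed level per kilobase, *Tcf7l2* took 44.9, 47.3, 66.0 and 63.1% in the knockouts and 54.7, 46.7, 42.5 and 48.4% in the controls. *Tcf7* took 43.7, 41.5, 24.0 and 25.1% in the knockouts and 35.5, 43.3, 46.5 and 36.9% in the controls. Knockouts 3 and 4, both of the second run, had the highest *Tcf7l2* and the lowest *Tcf7* shares of all 8 mice, and knockouts 1 and 2 lay within the range of the controls. In knockout 3 the *Tcf7l2* level was the highest of the 8, whereas in knockout 4 the *Tcf7* level was the lowest of the 8.

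The mean share of *Tcf7l2* was 55.3 ± 10.8% in the knockouts and 48.1 ± 5.07% in the controls, and that of *Tcf7* 33.6 ± 10.4% and 40.6 ± 5.21%. *Lef1* took 9.26 ± 0.69% and 10.1 ± 2.41%, and *Tcf7l1* took 1.83 ± 0.72% and 1.23 ± 0.13%. The genotypes overlapped for each of the 4 genes. The shares depend on the length used, while the order of the genotype means does not. With the length of the longest coding transcript in place of all exons, *Tcf7l2* took 67.0% in the knockouts and 61.3% in the controls, and *Tcf7* 18.9% and 23.5%. By exonic length, *Tcf7* exceeded *Tcf7l2* in control 3 (46.5 against 42.5%). The family summed to 26.0 ± 7.75 CPM per kb in the knockouts and 21.4 ± 1.50 in the controls, with the highest sum of 37.0 in knockout 3.

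**Figure D4:**
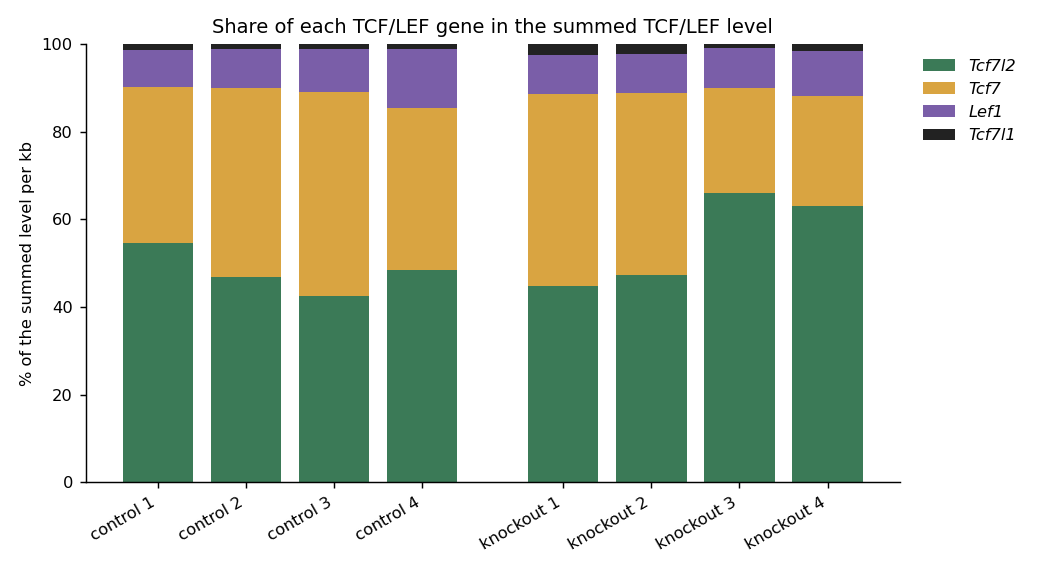
Stacked bars give the share of *Tcf7l2*, *Tcf7*, *Lef1* and *Tcf7l1* in the summed TCF/LEF level per kilobase (vertical axis, %) for each control and knockout mouse. *Tcf7l2* reaches 66.0% in knockout 3 and 63.1% in knockout 4, and lies between 42.5 and 54.7% in the other 6 mice.

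Related genes were compared with the 10 per exonic length, so the limit given above for *Csnk1a1* and *Gsk3b* holds for their ratios too. Among the AXIN scaffolds, *Axin2*, itself a classical Wnt target, exceeded *Axin1* per length in all 8 libraries, by 5.34 to 18.0-fold. *Gsk3b* exceeded *Gsk3a* by 3.13 to 12.3-fold, and *Csnk1a1* exceeded *Csnk1d* by 2.58 to 8.14-fold. *Ctnnb1* exceeded *Jup*, which encodes plakoglobin, the β-catenin relative of cell junctions, by 5.11 to 12.5-fold. *Bcl9* and *Bcl9l* were alike in level, with a ratio of 0.456 to 1.35. *Apc2* had 1 to 12 counts per library and was not tested.

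Between the genotypes, *Axin2* stood at 226 ± 34.2 CPM in the knockouts and 167 ± 14.5 CPM in the controls, and all 4 knockouts lay above all 4 controls. Its log2 fold change was 0.44 (SE 0.13), which did not pass the adjustment over all genes (edgeR adjusted p = 0.384); it was 0.34 within the first run and 0.52 within the second. *Jup* behaved likewise, at 31.1 ± 9.07 CPM against 18.6 ± 1.218 CPM (log2 fold change 0.74, SE 0.22, edgeR adjusted p = 0.381), again without overlap, with 0.32 and 1.07 within the runs. *Gsk3a*, *Csnk1d*, *Csnk1e* and *Bcl9l* had log2 fold changes of 0.41, 0.26, 0.02 and 0.30, and their libraries overlapped.

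The wider pathway was described by 5 lists holding 84 genes, 74 of them tested, in which 0 passed at an adjusted p under 0.1 by edgeR. The lists were written with earlier results of these data known, so counts within them are a description only. DESeq2 called 8 of the 74 (beside 2.4% of all genes), with *Ccnd1*, *Dkk3*, *Ephb3*, *Jup*, *Nkd1* and *Notum* higher and *Slc12a2* and *Sox17* lower, and limma-voom called 3 of these (beside 0.626% of all genes), *Nkd1*, *Notum* and *Slc12a2*. Of the 22 genes of the destruction complex and of β-catenin turnover, 21 were tested. Of these, 11 were higher and 10 lower, and the median log2 fold change was 0.02. An unadjusted p under 0.05 was found for 14.3%, beside 9.15% of all genes, in 2 with higher values and in 1 with a lower value. *Ppp2r1a*, the scaffold subunit of protein phosphatase 2A, stood at 84.1 ± 11.9 CPM against 62.4 ± 10.2 CPM (log2 fold change 0.43, SE 0.17, edgeR adjusted p = 0.494).

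Of the 13 nuclear co-activators 12 were tested, 6 were higher and 6 lower, and the median was 0.00. Of the 12, 1 (8.33%) had an unadjusted p under 0.05, beside 9.15% of all genes. That gene was *Smarca4*, the ATPase of the SWI/SNF chromatin remodelling complex. It stood at 79.7, 89.8, 171 and 108 CPM in the knockouts and at 73.5, 65.7, 69.9 and 72.9 CPM in the controls, with a log2 fold change of 0.67 (SE 0.23, edgeR adjusted p = 0.449). *Carm1*, an arginine methyltransferase, had a log2 fold change of 1.42 (SE 0.81, edgeR adjusted p = 0.648), with 10.5 CPM in knockout 3 and 0.72 to 2.36 CPM in the other 7 libraries.

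Of the 16 nuclear repressors and antagonists 13 were tested, 7 were higher and 6 lower, and the median was 0.14. Of the 13, 1 (7.69%) had an unadjusted p under 0.05, beside 9.15% of all genes. That gene was *Sox17*, whose product binds β-catenin and restrains TCF activity and which is also an endothelial gene. *Sox17* had 8, 0, 1 and 4 counts in the knockouts and 58, 39, 61 and 70 counts in the controls. This was the largest fitted change by size among the genes of the 5 lists (log2 fold change -4.27, SE 0.86), and it did not pass the adjustment (edgeR adjusted p = 0.195). The endothelial marker *Pecam1* had 67 to 106 counts in the knockouts and 59 to 92 counts in the controls, and the part of vessel cells in the *Sox17* counts was not tested. *Tle3*, a Groucho-type co-repressor, had a log2 fold change of 0.47 (SE 0.23, edgeR adjusted p = 0.574).

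Of the 11 adherens junction partners, which hold the membrane-bound pool of β-catenin, 9 were tested. Of these, 8 were higher and 1 lower, beside 8350 higher and 8095 lower among all genes, and the median was 0.07. An unadjusted p under 0.05 was found for 3 (33.3%), all higher, beside 5.4% of all genes with higher values. *Cdh1*, which encodes E-cadherin, had a log2 fold change of 0.03. Besides *Jup*, *Lmo7* stood without overlap at 283 ± 38.3 CPM against 216 ± 19.3 CPM (log2 fold change 0.38, SE 0.13, edgeR adjusted p = 0.429).

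Of the 23 Wnt target genes 20 were tested, 12 were higher and 8 lower, and 8 (40.0%) had an unadjusted p under 0.05, 7 of them higher in the knockouts and 1 lower. Of all genes, 5.4% had such a p with higher and 3.75% with lower values. Because earlier results of these data were known when the list was written, its share is a description and no test of the list. In 7 of the 20 the genotypes did not overlap, 6 of them higher and 1 lower, against 3.34% and 2.94% of all genes. The median log2 fold change was 0.21, and 0.41 without knockout 3. *Nkd1*, a feedback inhibitor of the pathway, stood at 84.1, 52.8, 76.4 and 47.9 CPM in the knockouts and 28.8, 26.9, 28.9 and 21.1 CPM in the controls (log2 fold change 1.31, SE 0.22, edgeR adjusted p = 0.139). *Slc12a2*, an ion cotransporter of crypt base cells, went the other way, at 1418 ± 291 CPM against 2596 ± 331 CPM (log2 fold change -0.87, SE 0.16, edgeR adjusted p = 0.151). The list thus held genes in both directions, and *Lgr5* itself had a log2 fold change of -0.06. Beside these, 6 of the 9 goblet and 6 of the 9 Paneth cell markers had an unadjusted p under 0.05 in the same comparison, and their part in the values of the Wnt target genes was not tested.

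**Figure D5:**
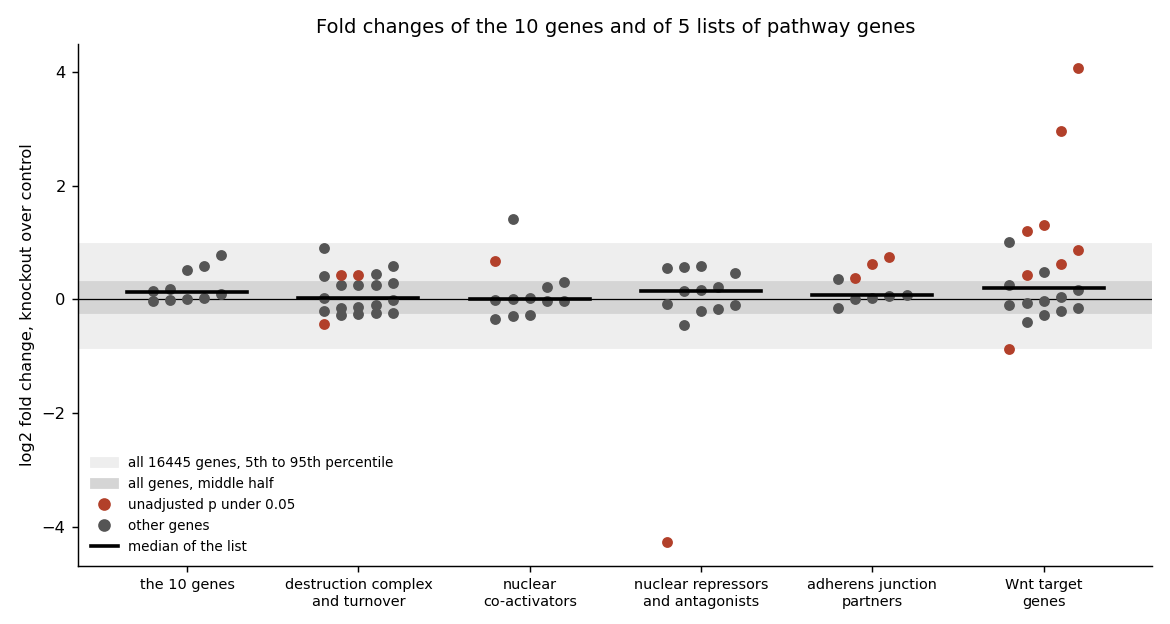
Each point is the log2 fold change of 1 tested gene, knockout over control (vertical axis), for the 10 genes and the 5 lists; red points have an unadjusted edgeR p under 0.05, thick bars are medians, and the grey bands span the 5th to 95th percentile and the middle 50% of all 16445 genes. The 10 genes hold no red point and have a median of 0.12, and 8 of the 20 tested Wnt target genes are red. All lists were written with earlier results of these data known.

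Across the 8 libraries, the genes most like *Ctnnb1* in log2 CPM among 16438 tested genes were *Gm7776* (Pearson r = 0.985), *Wbp1l* (r = 0.977) and *Poc1b* (r = 0.974). They are named as a description only, since they were picked as the highest of many values over 8 libraries. *Poc1b* stood at 26.6 to 32.6 CPM in the first run and knockout 3 and at 12.99 to 15.3 CPM in the other 3 libraries, so these genes follow much the same order of libraries as *Ctnnb1*.

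Promoters of the 10 genes, from 250 bases before to 50 bases after each annotated start (RefSeq, GRCm38.p6), were searched on both strands for the core of the TCF/LEF motif. A promoter was given for 7 of the 10 genes, 13 promoters in all. The letters CTTTGAA occurred in 0 of the 13 and in 5.14% of all 32851 promoters, and CTTTGAT occurred in 0 of the 13 and in 3.73% of all. The content of G and C was 75.0 and 75.3% in the *Ctnnb1* promoters and 80.7% in that of *Bcl9*, above the median of 52.7% over all promoters. *Tcf7l2* and *Lef1* each had promoters on both sides of this median, from 42.0 to 70.0% and from 43.7 to 67.3%.

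The genes also differ in how cleanly their reads can be assigned. Of the exonic bases of *Ctnnb1*, 15.1% overlap those of *Ulk4* or *Mir7090*, and 4.56% of those of *Tcf7l1* overlap *Gm15401*. For the other 7 genes besides these and *Lef1* no exonic base overlapped another gene, and under 1% of their 31-base words occurred in transcripts of another gene.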

How the data were processed

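The authors aligned reads to mm10 with GSNAP, counted them on Ensembl release 92 with featureCounts 1.6.3 without strand, and deposited raw counts per gene. A second deposited table holds signal, the counts divided by 1 DESeq2 size factor per library (0.811 to 1.17). It was used for gene symbols and to recover these factors. Rows of 92 spike-in transcripts (0 to 36 counts per library) were left out.

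In R 4.3.3, edgeR's filterByExpr removed low genes (minimum count 10, minimum total 15), TMM set the scale, and libraries were compared with the robust quasi-likelihood test of edgeR 4.0.16, with genotype as the only term. CPM are relative to TMM-scaled counts. An SE is the log2 fold change divided by the square root of F. Permutation tests were exact and used log2 CPM with a prior count of 2, and their smallest two-sided p is 0.0286. The test was checked on simulated data. DESeq2 1.42.0, limma 3.58.1, other scalings and filters, a term for the run, a covariate of Xist over Y-linked transcripts and leaving out each library were alternatives.

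The 10 genes, the lists and the markers were chosen with earlier results of these data known. Named beside the 10 genes were *Kmt2a*, 7 paralogs, the 2 genes of each list with the smallest p, the 3 genes most like *Ctnnb1*, and single markers chosen after their values were seen. Exon positions and shared words came from GENCODE M21 and promoters from RefSeq. Figures were drawn with matplotlib. Smart-seq2 libraries hold PCR copies without identifiers for single molecules, so counting error understates the noise, and p-values rest on the spread between mice.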

Additional observations from a re-analysis of the deposited data

Results flagged for a closer look

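Values in groups of 4 libraries were checked for a single library far from the other 3 of its genotype (Dixon's criterion at 95%). Of 58 such groups, from 29 genes, 6 were marked, and chance marks about 1 in 20, or 2.9 of them. Of the 6, 2 belong to the 10 genes and 3 to knockout 3. *Tcf7l2* stood at 213.69 CPM in knockout 3, against 95.5 to 105 CPM in the other knockouts. *Bcl9* stood at 9.086 CPM in knockout 3, against 16.2 to 16.7 CPM, so the same library was high for a TCF factor and low for a co-activator. *Carm1* stood at 10.547 CPM in knockout 3, against 0.811 to 2.36 CPM.

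Other libraries were marked for single genes. *Kmt2a*, the targeted gene, stood at 64.896 CPM in control 2, against 48.9 to 51.2 CPM in the other controls. *Ppp2r1a* stood at 47.131 CPM in control 4, against 66.2 to 68.2 CPM. *Apc2* stood at 0.788 CPM (12 counts) in knockout 4, against 0.0541 to 0.177 CPM.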

How the results depend on the processing

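Of 170 values of the 10 genes under 17 other settings, 152 kept their direction, 18 reversed and 0 passed an adjusted p under 0.1 (lowest 0.396). An unadjusted p under 0.05 occurred in 5, for *Axin1*, *Tcf7l1* and *Tcf7l2* (lowest 0.0231). Signs reversed for *Apc*, *Gsk3b*, *Tcf7*, *Lef1* and *Bcl9*, whose fitted changes lay between -0.03 and 0.15. *Apc* was at -0.0029 with upper quartile scaling and -0.031 with limma-voom, *Tcf7* at 0.061 and *Bcl9* at 0.095 with limma-voom, and *Bcl9* at 0.012 with the Xist covariate. With a library left out, *Apc* ranged from -0.125 to 0.0882, *Gsk3b* from -0.0717 to 0.118, *Tcf7* from -0.172 to 0.171, *Lef1* from -0.0497 to 0.282 and *Bcl9* from -0.0841 to 0.159, and the median of the 10 genes from 0.08 to 0.17.

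The count of genes without overlap among the 10 was 1 with upper quartile scaling (*Tcf7l1*) and 0 to 1 with a library left out (*Tcf7l1* without knockout 4, *Bcl9* without knockout 3). Over all genes the count called moved from 14 to 8 with upper quartile scaling, 394 with DESeq2, 103 with limma-voom, 47 without a filter, 34 with at least 10 counts in every library, 0 with the run as a term, 0 with the Xist covariate and 0 to 45 with a library left out (45 without knockout 3, 2 without knockout 1, 0 without any other). The causes were not tested. Without division by length, the ranks became 6 for *Tcf7*, 4 for *Gsk3b*, 5 for *Apc*, 9 for *Axin1*, 7 for *Lef1* and 8 for *Bcl9*. With the transcript length, *Tcf7* took 18.9% (knockout) and 23.5% (control) of the TCF/LEF level, *Tcf7l2* 67.0 and 61.3%, *Lef1* 12.1 and 13.9%, and *Tcf7l1* 1.39% in the controls. No paired analysis was possible because the labels give the genotypes no shared replicate numbers. With 4 mice a genotype, the 95% intervals of all 10 genes include 0.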
